A study of Mus musculus with 6 samples.

Results

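The genes described here are those of bone morphogenetic protein (BMP) and transforming growth factor beta (TGF-beta) signalling. They were chosen by name and include Bmp1 to Bmp15 where present, the growth differentiation factors (Gdf), Tgfb1 to Tgfb3, the receptors Bmpr1a, Bmpr1b, Bmpr2 and Tgfbr1 to Tgfbr3, Smad1 to Smad9, Id1 to Id4, Nog, Chrd, Grem1 and Ltbp1 to Ltbp4. The rule found 50 genes among 23358 in the count table. It used no measured value, but it was chosen with earlier results of these data known. The data are RNA-seq of total RNA from 6 samples of calvaria (the skull's flat roofing bones) from mice 2 to 3 days old. WT means the 3 libraries labelled wild type for Ezh2 (Ezh2_WT-Osx), numbered 14, 27 and 29, and cKO the 3 labelled Ezh2 conditional knockout (Ezh2_cKO-Osx), numbered 8, 10 and 37. Ezh2 is the methyltransferase of Polycomb repressive complex PRC2. Osx, in both genotypes, is the former symbol of Sp7, an osteoblast transcription factor. Whether Osx drives a Cre, which part of Ezh2 is deleted, and whether each library is a separate mouse, is not given in the sources used here. The p-values therefore measure the spread between these libraries, which may be partly technical. Before freezing, all calvaria were digested for 20 min with collagenase type II (2 mg/ml) and trypsin (0.005%).

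BMPs and TGF-betas are secreted dimers that bring together type I and type II receptor kinases at the cell surface. BMP receptors phosphorylate Smad1, Smad5 and Smad9, and TGF-beta receptors phosphorylate Smad2 and Smad3. These then enter the nucleus with Smad4 and change transcription. Smad6 and Smad7 are inhibitory Smads, induced by the pathway they restrain, and the Id genes are direct BMP targets that encode inhibitors of basic helix-loop-helix transcription factors. In skull bone, BMPs promote osteoblast differentiation, antagonists such as noggin limit their reach, and TGF-beta is stored in the matrix bound to latent TGF-beta binding proteins.

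Total counts ran from 60449016 to 95439578 per library. Ezh2 had 20.4 to 21.7 CPM (counts scaled to library size) in WT and 19.2 to 20.6 in cKO. Log2 fold changes here are cKO relative to WT, followed by ± their standard error, and that of Ezh2 was -0.07 ± 0.07 (adjusted p = 0.507). Gene counts cannot check the deletion while the deleted part is unknown, so the groups rest on the labels. The bone identity of the tissue was visible in Col1a1 at 44380 to 99700 CPM and Runx2 at 234.7 to 281 CPM. Of the markers listed for other cell types and present in the count table, no gene was at 0 in all 6 libraries. Some were near it, such as Cd3e with counts of 0 to 2. Summed markers of skeletal muscle, epidermis and erythroid cells were low, at 5.11 to 13.8 CPM over the libraries. The summed chondrocyte markers were uneven within both groups. They stood at 3645, 10590 and 7411 CPM in WT 14, 27 and 29. In cKO 8, 10 and 37 they stood at 7921, 8264 and 1867 CPM. The part of cartilage in the values of the members was not tested. In bulk RNA, fewer cells of a type and less RNA per cell cannot be told apart.

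Of the 50 genes, 47 were abundant enough to test. Among them 2 rose in cKO, the ligand Bmp5 and the signal transducer Smad5. A further 5 fell: the ligands Bmp6 and Tgfb1, the inhibitory Smads Smad6 and Smad7, and the BMP target Id2. The other 40 did not pass an adjusted p of 0.05 (edgeR quasi-likelihood test, Benjamini-Hochberg over 16089 genes). The 7 that changed are 14.9% of those tested, against 12.4% of all genes, so the set was called at about the background rate. With a correction for GC content and gene length the shares were 4.26% of members and 12% of all genes. All genes divided into 959 higher (5.96%) and 1038 lower (6.45%), or 1191 and 764 with upper-quartile scaling, where the members divided into 3 higher and 3 lower. In 14 of the 47 genes the libraries of the groups did not overlap, 29.8% against 34.6% of all genes. The median log2 fold change of the members was -0.05 and that of all genes 0.01, and the median size without sign was 0.17 and 0.16. No called member changed by more than 1.47-fold.

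**Figure D1:**
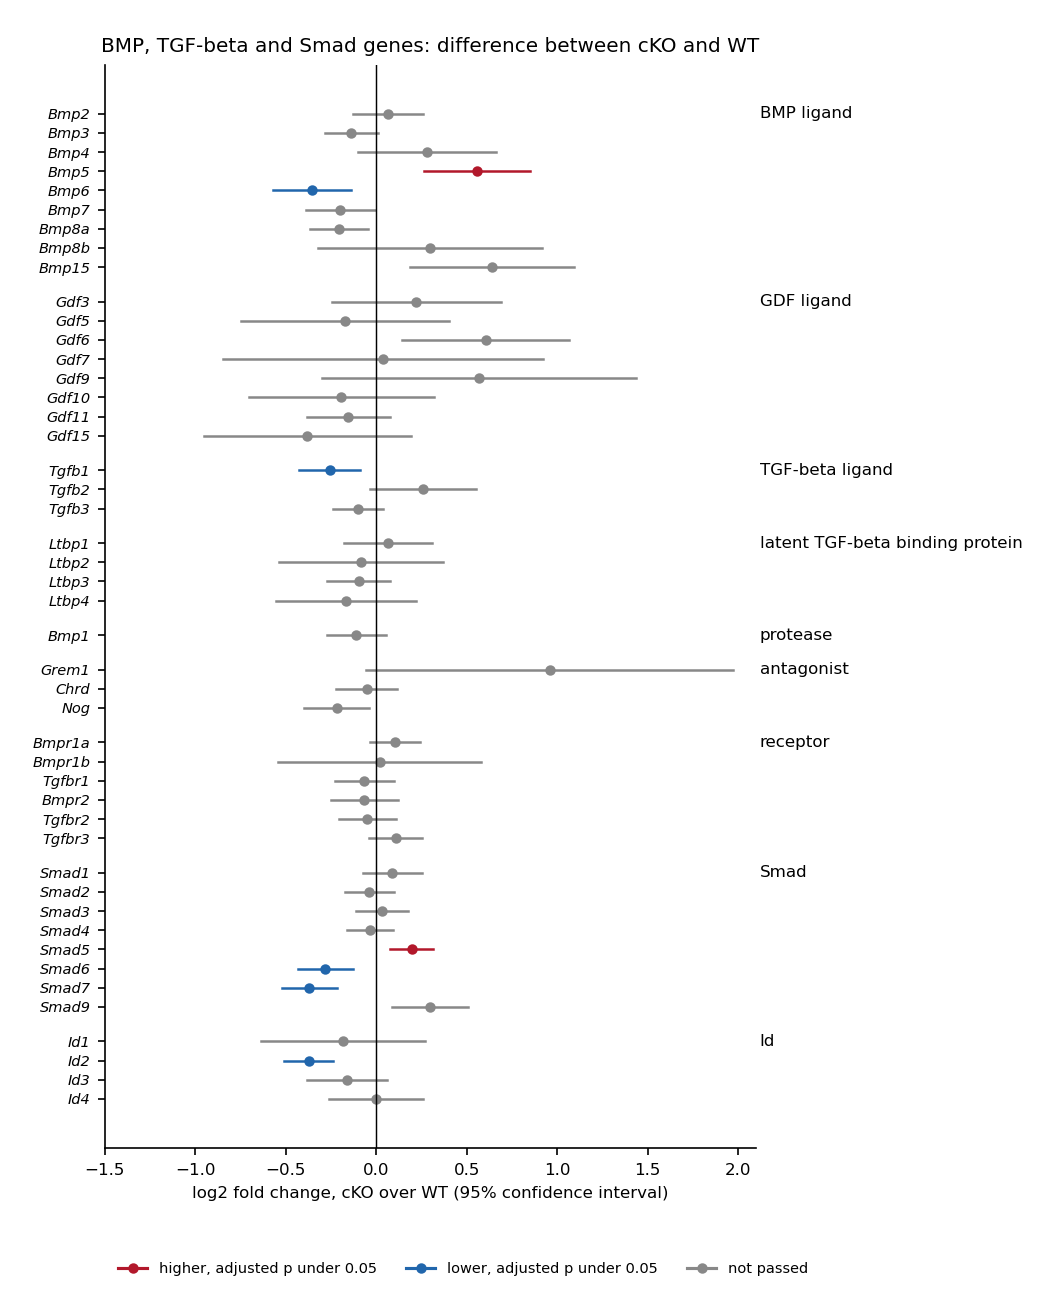
Log2 fold change (cKO over WT, horizontal axis) of 46 of the 47 genes tested, grouped by role, with 95% confidence intervals as lines and 3 libraries per group. Red marks the 2 genes that rose, blue the 5 that fell and grey the 39 shown that did not pass. The receptors lie between -0.07 and 0.11, and the widest interval is that of Grem1, from -0.05 to 1.97.

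Id2 and Smad7 were the members whose calls depended least on the settings, passing in 16 of 17 alternatives, including the omission of each library in turn. Both were lost in a test against a 1.2-fold change, which no member passed. The other 5 calls were each lost without at least 4 of the 6 libraries, and all 5 were lost in a fit corrected for gene length and GC content (the GC and length offset). All 7 kept their direction in every alternative.

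Among the ligands, Bmp5 and Bmp6 moved in opposite directions. Bmp5, a BMP known from the short ear mouse for its role in cartilage and bone formation, lies on chromosome 9 (75775365 to 75899017, mm10). It had 6.26, 7.93 and 7.37 CPM in WT 14, 27 and 29, and 10.3, 12.4 and 9.10 CPM in cKO 8, 10 and 37. Every cKO library was above every WT library, with cKO 10 highest. The difference was 1.47-fold (log2 0.56 ± 0.13, 95% confidence interval 0.27 to 0.85, adjusted p = 0.0224). The call did not hold when WT 14, WT 29, cKO 8 or cKO 10 was left out (adjusted p 0.0715 to 0.0799), or under the offset (0.46, adjusted p = 0.0673).

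Bmp6 (chromosome 13, 38345716 to 38499728), an osteogenic ligand of the same subfamily as Bmp5 and Bmp7, had 9.21, 9.62 and 9.53 CPM in WT 14, 27 and 29. In cKO 8, 10 and 37 it had 8.01, 7.06 and 7.13 CPM, all below WT. The log2 fold change was -0.35 ± 0.10 (adjusted p = 0.0383), and the call was lost whichever library was left out (adjusted p 0.0647 to 0.117), under upper-quartile scaling, and under the offset (-0.26, adjusted p = 0.102). Per transcript length, the order of the pair turned round. The ratio of Bmp5 to Bmp6 in deposited RPKM (reads per unit of transcript length and of library total) was 0.648, 0.786 and 0.738 in WT 14, 27 and 29, and 1.22, 1.68 and 1.22 in cKO 8, 10 and 37. The ratio was below 1 in every WT library and above 1 in every cKO library. Since the pair was picked for its calls, this ratio is a description and has no test. It carries no correction for GC content.

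The main osteogenic ligands did not pass. Bmp2, a ligand with a central part in osteoblast differentiation, had 20.5 to 23.1 CPM in WT and 20.9 to 25.4 in cKO (log2 0.07 ± 0.09, adjusted p = 0.657). Bmp4 had 20.7, 12.9 and 14.8 CPM in WT 14, 27 and 29, and 18.4, 20.5 and 19.8 CPM in cKO 8, 10 and 37. WT 14 lay just above the cKO range and the other WT libraries below it, and the difference (0.28 ± 0.16, adjusted p = 0.310) passed without WT 14 (adjusted p = 0.0183). The Bmp7 value was -0.20 ± 0.09 (adjusted p = 0.155), although its cKO libraries, at 9.57 to 10.3 CPM, were all below those of WT. The summed RPKM of Bmp2, Bmp4, Bmp5, Bmp6 and Bmp7 was 20.7 to 22.9 in WT and 21.5 to 25.7 in cKO, ranges that overlap. Within that sum Bmp5 held 7.81% to 11.4% in WT and 12.2% to 14.7% in cKO, and Bmp6 12.1% to 14.6% and less in each cKO library.

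Of the remaining BMP ligands, Bmp3, a BMP that opposes osteogenic BMP signals in bone, was the most abundant per length (13.9 RPKM in WT and 12.7 in cKO, log2 -0.14 ± 0.07, adjusted p = 0.198). Bmp8a had all cKO libraries below WT (21.0 to 22.2 against 23.3 to 27.2 CPM) but did not pass (-0.21 ± 0.07, adjusted p = 0.0904). Bmp8b, the similar gene 186.6 kb away on chromosome 4, had under 1 CPM in each library, and reads from these copies could be divided between them. Bmp15, known as an oocyte factor, had 1.02 to 1.40 CPM in WT and more in every cKO library, up to 2.08 CPM (0.64 ± 0.21, adjusted p = 0.0648). Its value is uncertain, because 9 other entries of the table overlap its span. DESeq2 called it (adjusted p = 0.0455). Bmp10 was too scarce to test, with counts of 0 to 2.

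No growth differentiation factor passed. Gdf10, also called Bmp3b, was the only one above 4 RPKM, at 31.4 to 56.1 RPKM in WT and 32.8 to 42.0 in cKO (log2 -0.19 ± 0.20, adjusted p = 0.594). Gdf6, which is needed for joints and the coronal suture, had 1.59, 1.43 and 1.35 CPM in WT 14, 27 and 29, and 2.70, 2.29 and 1.66 CPM in cKO 8, 10 and 37. The groups did not overlap, but cKO 37 was near WT. The value (0.60 ± 0.21, adjusted p = 0.0821) passed only without cKO 37 (adjusted p = 0.0315) or at an adjusted p threshold of 0.1. Gdf11 was below WT in each cKO library (6.58 to 7.38 against 7.42 to 8.33 CPM) by a margin that did not pass (-0.15 ± 0.10, adjusted p = 0.364). Gdf2 had counts of 2 to 10 and was not tested. Gdf1 is listed at 0 in all 6 libraries, and it overlaps Lass1 and Upf1 in the table.

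**Figure D2:**
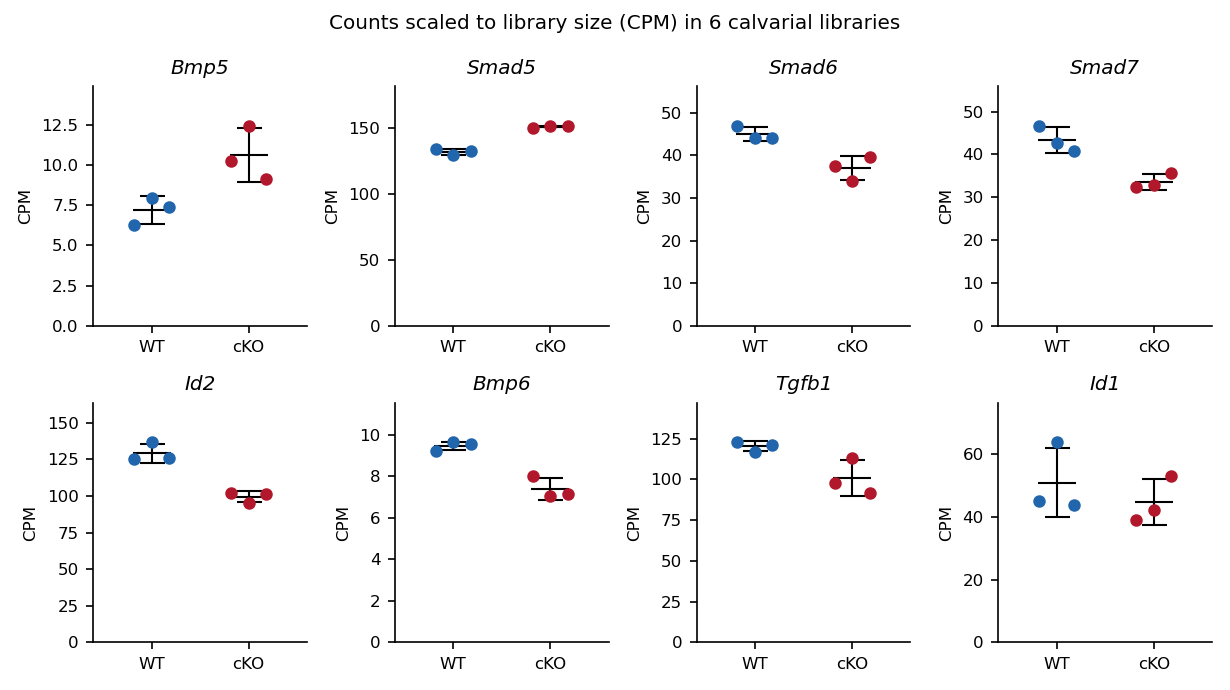
CPM of the 7 members that changed and of Id1 in each library, with points for the 3 WT (blue) and 3 cKO (red) libraries and bars for the mean ± SD. All vertical axes start at 0. The groups are separate in each of the 7 genes, with Tgfb1 the closest (112.9 CPM in cKO 10 against 117 in WT 27), while those of Id1 overlap.

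Tgfb1 was the TGF-beta ligand that fell, and Tgfb2 and Tgfb3 did not pass. Tgfb1 (chromosome 7, 25687002 to 25704996), the isoform most abundant in bone matrix, had 123, 117 and 121 CPM in WT 14, 27 and 29, and 97.5, 112.9 and 91.3 CPM in cKO 8, 10 and 37. All cKO libraries were lower, cKO 10 by little. The log2 fold change was -0.26 ± 0.08 (adjusted p = 0.0497), just inside the threshold. It was lost in 12 of 17 alternatives, including RLE scaling, and the omission of any library but cKO 10 (adjusted p 0.0879 to 0.17). Without cKO 10 it was -0.36 (adjusted p = 0.0174).

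Macrophages and osteoclasts also make Tgfb1. Of 6 tested leukocyte markers 2 fell (Csf1r and Itgam), 33.3% called against 12.4% of all genes. The summed level of the 7 listed genes in the table was 332 to 424 CPM in WT and 266 to 293.5 in cKO. Of 8 osteoclast markers 1 fell (Acp5), 12.5% called, about the share of all genes. Their sum was 2989 to 4274 CPM in WT and 2419 to 3056 in cKO. All 8 osteoclast estimates were negative, with a median log2 fold change of -0.55. The part of these cells in the Tgfb1 value was not tested. Tgfb2, which is prominent in the sutures, had 38.6, 41.7 and 39.2 CPM in WT 14, 27 and 29, and 47.6, 56.9 and 38.7 CPM in cKO 8, 10 and 37. The groups overlapped through cKO 37 (0.26 ± 0.13, adjusted p = 0.221), and without that library the difference passed (0.39, adjusted p = 0.0153). Tgfb3, at 140.4 to 160.0 CPM over the 6 libraries, did not pass (-0.10 ± 0.06, adjusted p = 0.316). It overlaps Ttll5 on the opposite strand, as Chrd overlaps Thpo, Bmp5 overlaps Gm26903 and Bmp6 overlaps 4930579J19Rik. Further members, among them Bmp4 and Tgfb2, also have partners on the opposite strand. Since the strand setting of the counting is not given, reads of such partners cannot be told apart.

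None of the 5 genes for proteins that store or release the ligands passed. Ltbp1 to Ltbp4, which tether latent TGF-beta to the matrix, had log2 fold changes of 0.06 ± 0.11, -0.08 ± 0.19, -0.10 ± 0.08 and -0.17 ± 0.16, with adjusted p from 0.454 to 0.812. Bmp1, despite its name a metalloprotease that cleaves procollagen and chordin, was the second most abundant gene per length (98.7 RPKM in WT). It had 558 to 619 CPM in WT and 541 to 552 in cKO, without overlap, but the difference was small (-0.11 ± 0.07, adjusted p = 0.357).

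No antagonist passed. Noggin (Nog), which binds BMPs and keeps them from their receptors, had 17.7, 15.8 and 18.3 CPM in WT 14, 27 and 29, and 14.5, 14.4 and 15.6 CPM in cKO 8, 10 and 37. Each cKO library was below each WT library, narrowly for cKO 37 and WT 27 (-0.22 ± 0.08, adjusted p = 0.105). Chordin (Chrd), at 15.6 to 18.1 CPM, gave -0.05 ± 0.08 (adjusted p = 0.700). Grem1 was scarce, at 0.143 to 0.574 CPM in WT and 0.516 to 0.801 in cKO, and its estimate was imprecise (0.96 ± 0.46, adjusted p = 0.196). It passed without WT 14 (adjusted p = 0.0487).

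Without the GC and length offset, the 6 receptors showed the smallest differences of any role with more than 1 gene, with a median size of 0.07 log2. This ranking depends on the fit. With the offset Ltbp1 to Ltbp4 stood at 0.08, -0.02, -0.02 and -0.08, while some receptors moved further from no change. Bmpr1a, the main type I BMP receptor of osteoblasts, had 119.6 to 133 CPM in WT and 132.5 to 143 in cKO (0.11 ± 0.06, adjusted p = 0.299). The type II receptors Bmpr2 and Tgfbr2 gave -0.07 ± 0.08 and -0.05 ± 0.07, Tgfbr1 gave -0.07 ± 0.07, and the co-receptor Tgfbr3 (betaglycan) gave 0.11 ± 0.07. Adjusted p ranged from 0.299 to 0.971 over all 6. For the 5 abundant receptors the 95% confidence intervals without the offset lay between -0.25 and 0.255 log2. Larger changes in their RNA lie outside the intervals of that fit only. With the GC and length offset the estimates were -0.01 for Bmpr1a, -0.16 for Bmpr2, -0.18 for Tgfbr1, -0.06 for Tgfbr2 and 0.07 for Tgfbr3, and none passed. Bmpr1b, at 1.22 to 2.18 CPM, was measured less well (0.02, interval -0.54 to 0.58).

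**Figure D3:**
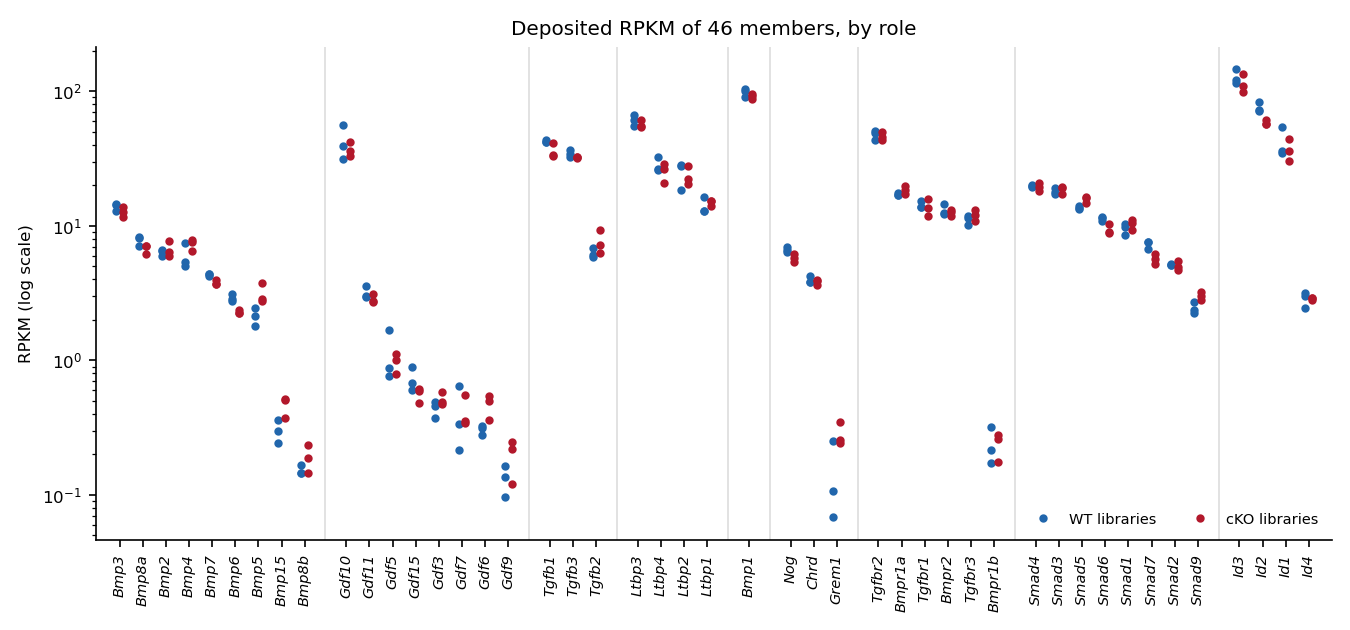
Deposited RPKM on a log scale for 46 of the 47 genes tested, grouped by role and ordered within a role by the WT mean, with 1 point for each WT (blue) and cKO (red) library. Id3 is highest at 115 to 145 RPKM in WT and Grem1 and Gdf9 lie lowest, and the ligands Bmp5 and Bmp6 are far scarcer than Tgfb1 or Id2.

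Per length, the order of the most abundant members in WT was Id3 (127 ± 16.2 RPKM, SD, n = 3), Bmp1 (98.7 ± 7.25), Id2 (75.6 ± 7.10), Ltbp3 (61.0 ± 5.82), Tgfbr2 (47.6 ± 3.59), Tgfb1 (42.7 ± 0.774), Gdf10 (42.3 ± 12.6) and Id1 (41.8 RPKM). The WT ranges of Tgfbr2, Tgfb1, Gdf10 and Id1 overlap one another, so their order is not fixed. In cKO the first 5 places were held by the same genes in the same order, while Tgfb1 stood in place 8.

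Within the Smads, both inhibitory members fell and 1 BMP-activated member rose. Smad7 (chromosome 18, 75367365 to 75395934), which recruits ubiquitin ligases to active receptors, had 46.6, 42.8 and 40.8 CPM in WT 14, 27 and 29, and 32.4, 32.8 and 35.6 CPM in cKO 8, 10 and 37. All cKO libraries were below all WT libraries, and cKO 37 was the nearest to them. The fold was 0.774 (log2 -0.37 ± 0.07, interval -0.52 to -0.22, adjusted p = 0.00867). Leaving out each library gave adjusted p from 0.00788 to 0.0473.

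Smad6 (chromosome 9, 63953076 to 64022059), which acts mainly on the BMP branch, had 46.9, 44.2 and 44.2 CPM in WT 14, 27 and 29. It had 37.6, 34.0 and 39.7 CPM in cKO 8, 10 and 37, all below WT. The fold was 0.823 (log2 -0.28 ± 0.07, adjusted p = 0.0256). The call did not hold when WT 14, WT 29, cKO 8 or cKO 10 was left out (adjusted p 0.0627 to 0.0845), and under the offset the value was -0.17 (adjusted p = 0.213). Smad3, its neighbour 195.1 kb away, did not pass (0.03 ± 0.07, adjusted p = 0.799).

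Smad5 (chromosome 13, 56703010 to 56742378) had 134, 129 and 132 CPM in WT 14, 27 and 29, and 150.2, 151 and 151 CPM in cKO 8, 10 and 37. The cKO libraries were nearly equal and all above WT. The rise was 1.15-fold (log2 0.20 ± 0.05, adjusted p = 0.0398). When 1 library was left out it passed only if that was cKO 37 (otherwise adjusted p 0.0791 to 0.127), and the offset took it to 0.11 (adjusted p = 0.159). Smad9 (also called Smad8) had 16.6, 16.3 and 20.2 CPM in WT 14, 27 and 29, and 23.0, 22.5 and 19.8 CPM in cKO 8, 10 and 37. Only cKO 37 lay below the highest WT library, and the difference (0.30 ± 0.10, adjusted p = 0.0636) did not pass, though it did with DESeq2, with upper-quartile scaling, and without WT 29 or cKO 37.

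The other Smads did not pass and had small estimates. Smad1, the remaining BMP-activated Smad, gave 0.09 ± 0.07 (adjusted p = 0.469). The TGF-beta transducers Smad2 and Smad3 gave -0.04 ± 0.06 and 0.03 ± 0.07, and the common partner Smad4, at 85.0 to 90.9 CPM, gave -0.03 ± 0.06. Adjusted p for these was 0.726, 0.799 and 0.740. Set per length, Smad6 and Smad7 together stood at 0.784, 0.727 and 0.661 of the summed RPKM of Smad1, Smad5 and Smad9 in WT 14, 27 and 29. The ratio was 0.520, 0.476 and 0.556 in cKO 8, 10 and 37. It was lower in each cKO library, 0.517 ± 0.0403 against 0.724 ± 0.0614 (SD, n = 3). This ratio was formed from genes already seen to differ and has no test. It carries no correction for GC content. With the offset Smad6 (-0.17) and Smad5 (0.11) did not pass, while Smad7 (-0.30) did.

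Among the 4 Id genes, Id2 fell and the others did not pass. Id2 (chromosome 12, 25093799 to 25096092) had 125, 137 and 126 CPM in WT 14, 27 and 29, and 102, 95.2 and 101 CPM in cKO 8, 10 and 37. All cKO libraries lay well below all WT libraries, by more than the spread within either group. The fold was 0.771 (log2 -0.37 ± 0.06, interval -0.51 to -0.24, adjusted p = 0.00545), and it passed without each library in turn (adjusted p 0.00663 to 0.0262). Id1 had 45.1, 63.6 and 43.8 CPM in WT 14, 27 and 29, and 39.0, 42.3 and 52.9 CPM in cKO 8, 10 and 37. The groups overlapped, with WT 27 high and cKO 37 the highest of its group.

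The Id1 value was -0.18 ± 0.19 (adjusted p = 0.571), and without WT 27 it was 0.00. Id3, the most abundant member per length, had 150.5 to 177.5 CPM in WT and 132 to 168 in cKO (-0.16 ± 0.10, adjusted p = 0.326). It passed without cKO 37 (adjusted p = 0.0322), the cKO library where Id3 and Id1 were highest. Id4 did not pass (difference 0.00 ± 0.12, adjusted p = 0.996). The summed RPKM of the 4 Id genes was 225 to 287 in WT and 188 to 244 in cKO, ranges that overlap. Whether Id2 differs from Id1 or Id3 in its response was not tested.

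RNA of early response genes, which can rise within minutes while tissue is handled, moved with these falls. Of 16 listed, 15 fell (93.8% called, against 12.4% of all genes), with a median log2 fold change of -0.79. The summed level of the 16 was 4875 to 5564 CPM in WT and 2583 to 3369 in cKO. Fos and Egr1, transcription factors of that response, fell by 0.75 ± 0.10 and 0.91 ± 0.11 (adjusted p = 0.00261 and 0.00166). The part of the early response in the values of Id2, Smad6 and Smad7 was not tested. Markers of suture mesenchyme and fibroblasts stood the other way, with 2 of 8 higher (Axin2 and Pdgfra, 25% called). The summed level of these markers was 870.2 to 922 CPM in WT and 949.6 to 1035 in cKO. Their part in the Bmp5 and Smad5 values was not tested either. Of 10 osteoblast markers 1 rose (Mepe) and 1 fell (Sp7), 20% called, with a median of 0.04. Their sum, 78770 to 107600 CPM in WT and 53570 to 75820 in cKO, was mostly Col1a1, which did not pass (-0.51 ± 0.20, adjusted p = 0.115). The other 9 summed to 6917 to 8557 CPM in WT and 7966 to 9192 in cKO. The largest part of that sum was Spp1, at 3922 to 5039 CPM in WT and 4360 to 5604 in cKO. Of the 10 estimates 5 were positive and 5 negative.

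The members differed in base composition along with their fold change. GC content of the longest annotated transcript was 40.5% for Bmp5 and 44.5% for Smad5, which rose. Among those that fell it was 45.2% for Id2, 52.5% for Tgfb1, 56.9% for Smad7, 57.8% for Bmp6 and 60.8% for Smad6. Across the 47 genes the correlation of GC content with log2 fold change was -0.418, and across 15870 genes tested with a GC value it was -0.207. Genes share the same 6 libraries and are not independent, so no p is given. Across all genes, those that rose had a median GC content of 45.7% and those that fell 53.8%. With an offset for GC content and length, Id2 (-0.42, adjusted p = 0.00264) and Smad7 (-0.30, adjusted p = 0.0378) remained below the threshold and no member was higher.

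**Figure D4:**
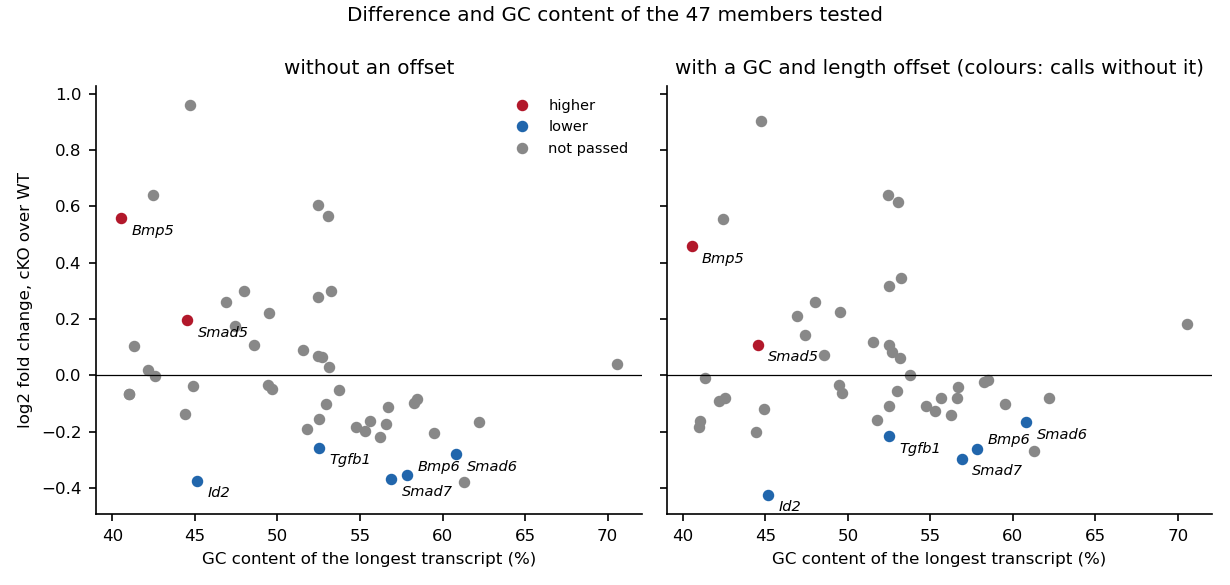
Log2 fold change (cKO over WT) against the GC content of the longest annotated transcript for the 47 genes tested, without (left) and with (right) an offset for GC content and length. Colours give the calls made without the offset. Bmp5 and Smad5 lie at the low-GC side and 4 of the 5 genes that fell, all but Id2, at 52.5% or above; on the right Smad5 and Smad6 lie closer to 0.

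Base composition also differed between promoters, shown here for Smad6 and Bmp5, which lie on chromosome 9 and moved in opposite directions. Bmp6 and Smad5, on chromosome 13, are another such pair and are not printed. The 250 bases before the start of Smad6 (chr9:64022060-64022309, minus strand) and of Bmp5 (chr9:75775115-75775364, plus strand) are from the RefSeq promoter table (GRCm38.p6), which held a window for 34 of the 50 genes. Both are written 5′ to 3′ on the gene's strand, with capitals marking matches to sequence motifs bound by Smads. The Bmp5 window overlaps 1 annotated exon (GENCODE M21), so part of it may be transcribed, and the Smad6 window overlaps 0.
Smad6: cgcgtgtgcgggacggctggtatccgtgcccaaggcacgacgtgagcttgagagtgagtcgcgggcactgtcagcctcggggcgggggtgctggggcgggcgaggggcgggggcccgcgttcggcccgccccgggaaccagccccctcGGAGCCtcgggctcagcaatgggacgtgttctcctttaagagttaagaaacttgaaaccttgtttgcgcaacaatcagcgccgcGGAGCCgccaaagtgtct
Bmp5: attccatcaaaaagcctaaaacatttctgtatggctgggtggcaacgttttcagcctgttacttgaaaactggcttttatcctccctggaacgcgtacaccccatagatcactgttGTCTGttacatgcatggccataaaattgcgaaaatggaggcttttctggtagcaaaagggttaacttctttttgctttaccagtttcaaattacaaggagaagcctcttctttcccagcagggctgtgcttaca
The Smad6 window has a GC content of 66.8%, and the Bmp5 window 42.8%. This pair does not stand for all called members. The first of 3 Smad5 windows, of a gene that rose, had 60.0%, and the Tgfb1 window, of a gene that fell, 75.2%. Searched on both strands were the Smad box CAGAC, its 8-base palindrome GTCTAGAC, the GC-rich boxes GGCGCC and GGAGCC, the AP-1 site TGANTCA and the cyclic AMP element TGACGTCA. Smad6 held GGAGCC at 2 places, whose first bases lie 102 and 18 bases before the start, and Bmp5 held CAGAC, read there as GTCTG, 134 bases before it. Of 32851 windows in the table, 26.0% held GGAGCC, 42.2% held CAGAC, 9.59% GGCGCC and 0.167% GTCTAGAC. The AP-1 site was in 6.75% and the cyclic AMP element in 1.55% of windows, and in neither of those printed. A match describes the letters and does not show binding.

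Beyond the members, 143 other genes of the pathways were looked up, and of 134 tested 8 rose and 9 fell (12.7%, against 12.4% of all genes), with a median of -0.01. The other ligands held 1 rise among 6 (16.7%). Inhba, which encodes the activin A subunit, had 6.21, 4.41 and 6.09 CPM in WT 14, 27 and 29, and 8.75, 8.80 and 9.21 CPM in cKO 8, 10 and 37. All cKO libraries were higher (0.68 ± 0.13, adjusted p = 0.0108). Of 13 other receptors and co-receptors, 1 rose (7.69%), Acvr1b, a type I receptor for activin (0.39 ± 0.09, adjusted p = 0.0189). It did not pass when WT 29, cKO 8 or cKO 10 was left out (0.0559 to 0.079).

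Among 31 extracellular modulators 2 rose and none fell (6.45% called, against 12.4% of all genes). Follistatin (Fst), which binds and neutralises activins, had 8.06, 7.36 and 8.81 CPM in WT 14, 27 and 29, and 13.5, 12.4 and 13.3 CPM in cKO 8, 10 and 37. It was higher in every cKO library (0.69 ± 0.10, adjusted p = 0.0028) and passed in all 17 alternatives. Sostdc1, a BMP and Wnt antagonist, rose by 0.49 ± 0.14 (adjusted p = 0.0388), but not without any single library except WT 14 (0.0743 to 0.138), nor with the offset (adjusted p = 0.0557).

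Of 38 intracellular Smad regulators 3 rose and 3 fell (15.8% called, against 12.4% of all genes). Tab1, an activator of the kinase TAK1, rose by 0.37 ± 0.07 (adjusted p = 0.00761), and Zfyve16 (endofin), an endosomal Smad anchor, by 0.38 ± 0.08 (adjusted p = 0.0170, lost without cKO 8, 0.0788). Fkbp1a, which binds type I receptors and keeps them inactive, fell by 0.29 ± 0.06 (adjusted p = 0.0155, lost without WT 29 or cKO 8). Tob1, a protein that binds BMP Smads and represses their activity, fell by 0.30 ± 0.08 (adjusted p = 0.0302). This call held only when WT 27 was the library left out (otherwise 0.0544 to 0.104). Map3k7, which encodes TAK1, rose by 0.23 ± 0.06 (adjusted p = 0.0352), a call lost whichever library was left out. The third fall was Stub1, named after its values were seen, which fell by 0.22 ± 0.06 (adjusted p = 0.0456).

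Of 20 BMP response genes of osteoblasts 1 rose and 5 fell (30% called, against 12.4% of all genes), with a median of -0.12. Tnfrsf11b (osteoprotegerin), a decoy receptor that restrains osteoclast formation, rose by 0.80 ± 0.13 (adjusted p = 0.00832). Dlx3, a homeobox factor of osteoblasts, fell by 0.57 ± 0.10 (adjusted p = 0.00713), and Sp7 by 0.37 ± 0.09 (adjusted p = 0.0211). The Sp7 call did not hold with the offset (adjusted p = 0.0562), nor in the absence of WT 29, cKO 8, cKO 10 or cKO 37. Hes1, a Notch and BMP target, fell by 0.37 ± 0.09 (adjusted p = 0.0211), but not without WT 27, WT 29, cKO 8 or cKO 10. Junb fell by 0.74 ± 0.08 (adjusted p = 0.00112), but it is also on the early response list, and Tob1 was counted above as well.

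Of 33 TGF-beta response genes 2 fell and none rose (6.06% called, against 12.4% of all genes), with a median of -0.16. Cyr61, a matrix protein, fell by 0.66 ± 0.10 (adjusted p = 0.00394), and Bhlhe40, a transcription factor, by 0.66 ± 0.10 (adjusted p = 0.0044). Both were lower in every cKO library, and Cyr61 is itself known as an immediate early gene. The targets Ctgf (-0.20 ± 0.12, adjusted p = 0.309) and Tgfbi (0.06 ± 0.24, adjusted p = 0.890), named here after their values were seen, did not pass.

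**Figure D5:**
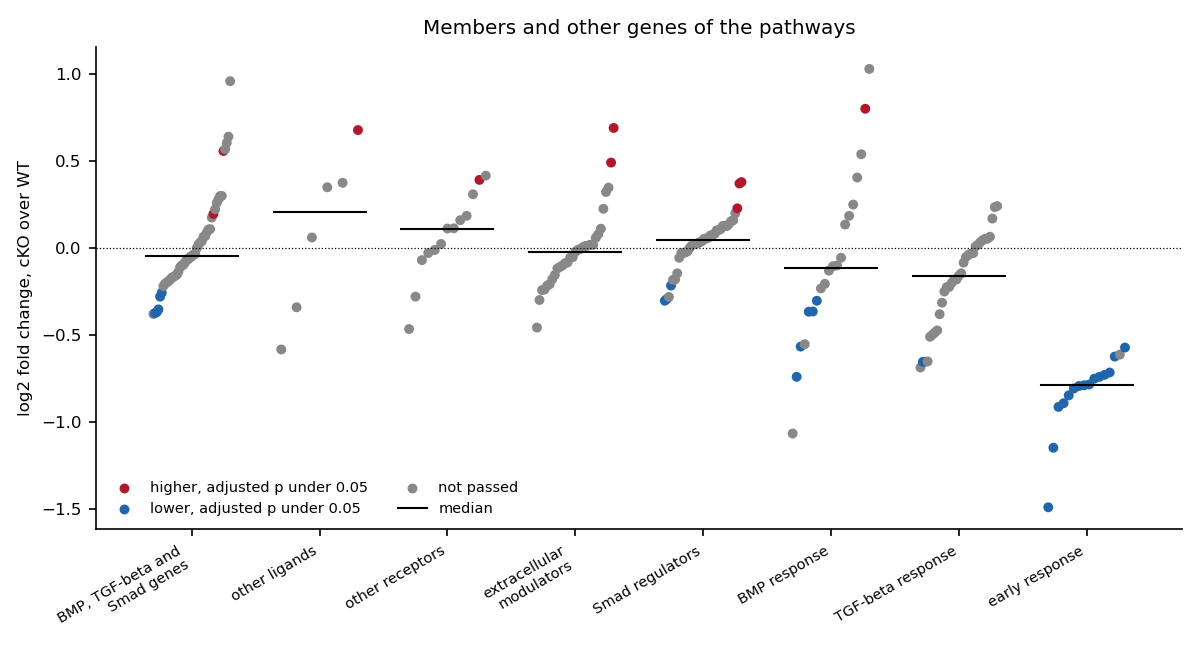
Log2 fold change (cKO over WT) of each gene tested in the members, in the 6 other lists of the pathways and in the early response list, ordered within a list, with red for higher, blue for lower, grey for not passed and a line at the median. The members' median is -0.05, and the early response list lies lowest with a median of -0.79.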

How the data were processed

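RNA from calvaria was sequenced in 6 libraries, 3 per genotype group as labelled. Per the submitters' processing notes, bcl2fastq, TopHat2 2.0.6 and HTSeq were used with mm10. The sources used here do not give the annotation, strand setting or filters. The deposited counts are reads per gene, all even, and were tested as they stand. The RPKM values deposited by the authors are per length and served only to compare levels between genes.

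In R 4.3.3 with edgeR 4.0.16, genes passing filterByExpr (minimum count 10) were scaled by TMM and tested by the robust quasi-likelihood test, two-sided, with Benjamini-Hochberg adjustment over 16089 genes and a threshold of 0.05. CPM uses the TMM library sizes, and totals of 60449016 to 95439578 counts limit precision mainly for members under 1 CPM. GC content is that of the longest GENCODE M21 transcript. The steps were tested on simulated data.

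The members and lists were chosen with earlier results of these data known. Named were every member past the threshold or without overlap, the main ligands, receptors, antagonists, Ltbp, Smad and Id genes, scarce members, and up to 5 called genes of each other pathway list. Alternatives were RLE and upper-quartile scaling, other filters, DESeq2 1.42.0, limma voom 3.58.1, halved counts, an adjusted p of 0.1, glmTreat against 1.2-fold, a GC and length offset, and omission of each library. A few items are withheld, and their results are not reported here.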

Additional observations from a re-analysis of the deposited data

How the results depend on the processing

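The 7 called members kept their direction in all 17 alternatives. Of the 40 not passed, 13 changed sign in at least 1, and 5 had fewer than 17 alternatives (15 at the least). Leaving out 1 library gave 0 to 5 members higher and 2 to 4 lower, 291 to 932 genes higher and 295 to 1053 lower, and 4 to 9 other pathway genes in each direction. No member was higher without cKO 8 or cKO 10, and 2 were lower without WT 14, WT 29 or cKO 8. Against the main 2 higher and 5 lower members, DESeq2 gave 4 higher, an adjusted p of 0.1 gave 5 higher, upper-quartile scaling gave 3 lower, the GC and length offset 0 higher and 2 lower (4.26%, against 12% of all genes), and the test against a 1.2-fold change 0 and 0. For all genes (959 higher, 1038 lower) an adjusted p of 0.1 gave 1593 and 1684, upper-quartile scaling turned the balance to 1191 and 764, and the test against 1.2-fold 62 and 50. For other pathway genes (8 higher, 9 lower) the test against 1.2-fold gave 1 and 3, and DESeq2 15 lower. The causes were not tested. Scaling moved the median of all genes to 0.03 at most. No paired analysis was possible because the labels give no pairing between the groups. Depth limits members such as Bmp8b, Gdf9 and Grem1, with under 1 CPM.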
